A study of Sus scrofa with 2 samples.

Results

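GATA3, TBX21, EOMES, MAF and RORA are transcription factors that serve to tell type 1, type 2 and type 17 fates of innate-like T cells apart, and their transcripts were followed cell by cell in pig thymus. They were taken by gene symbol from the gene lists of both raw count matrices, and all 5 were found among the 21301 genes listed. Their identifiers are ENSSSCG00000011125 for GATA3, ENSSSCG00000017517 for TBX21, ENSSSCG00000040057 for EOMES, ENSSSCG00000040607 for MAF and ENSSSCG00000004576 for RORA. The study set invariant natural killer T (iNKT) thymocytes beside total thymocytes, each as 1 droplet library of 3′ single-cell RNA-seq that counts transcripts by unique molecular identifier (UMI). Cells of each kind were pooled from the same 2 untreated pigs of mixed breed, aged 22 weeks. The iNKT cells were enriched with magnetic beads by positive selection, and flow cytometry then sorted the live cells of each kind. Each kind of cell had a single library and the pigs cannot be told apart within it, so no difference between the libraries was tested. The intervals given are 95% intervals that cover counting error only.

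iNKT cells are T cells with a nearly fixed antigen receptor that recognises lipids on CD1d. They are positively selected in the thymus by double-positive thymocytes, express the transcription factor PLZF, which ZBTB16 encodes, and in mice take on effector fates before they leave. In mouse thymus, type 1 iNKT cells express T-bet, the product of TBX21, and make interferon gamma. Type 2 cells have high GATA3 and PLZF and make IL-4, and type 17 cells make IL-17. EOMES is a T-box factor related to T-bet that is known from cytotoxic and memory T cells and NK cells. MAF is a bZIP factor known to drive IL4 in type 2 helper cells and also used by type 17 and follicular helper cells. RORA, a nuclear receptor, is known from type 17 cells and type 2 innate lymphoid cells. GATA3 is also needed early in thymic T cell development and for the CD4 lineage, so its transcript is not restricted to type 2 cells.

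After cells with under 500 genes or over 10% mitochondrial UMIs were left out, 11273 iNKT cells with a median of 4210 UMIs and 8026 total thymocytes with a median of 2414.5 UMIs remained. ZBTB16 had 11958 UMIs among iNKT cells, against 11 among total thymocytes, and 6233 iNKT cells (55.3%) held a ZBTB16 UMI. Markers of double-positive thymocytes were at 0.995 CPM (UMIs per 1000000 UMIs of the population) summed over 6 genes in the iNKT library, against 1673 CPM in total thymocytes. In iNKT cells and in total thymocytes, the B list stood at 116 and 194 CPM, the NK list at 4.28 and 20.9 CPM with NCR1 at 0 in iNKT cells, the myeloid list at 0.582 and 49.2 CPM, and the γδ list at 53.5 and 153 CPM with TRDC at 0 in iNKT cells. The libraries shared 41 cell barcodes, 0.339% of those of the iNKT library and 0.450% of those of total thymocytes. As a check on free RNA, 23 cells of the total library with at least 2 CD79B UMIs and no CD3E, B-like cells with a median of 2785 UMIs, held no UMI of GATA3, TBX21, EOMES or MAF, which allows a share of up to 13.0%, and 1 of the 23 (4.35%) held a RORA UMI. Of the gating genes, CCR7 was found in 7 of the 23 cells (30.4%) and CD8B in 2 (8.70%), and whether CCR7 there is free RNA or B cell expression was not tested.

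Set against total thymocytes, iNKT cells carried more MAF and RORA transcript and less GATA3, TBX21 and EOMES. MAF had 34.1 CPM in iNKT cells (1815 UMIs) and 5.18 CPM in total thymocytes (148 UMIs), a ratio of 6.58 (5.56 to 7.83). RORA had 30.7 CPM in iNKT cells (1633 UMIs) and 6.86 CPM in total thymocytes (196 UMIs), a ratio of 4.47 (3.85 to 5.21). GATA3 had 168 CPM in iNKT cells (8939 UMIs) and 291 CPM in total thymocytes (8322 UMIs), a ratio of 0.576 (0.559 to 0.594). Both factors of the type 1 fate were scarce in iNKT cells. TBX21 had 27 UMIs there, or 0.507 CPM, and 145 UMIs in total thymocytes, or 5.08 CPM, a ratio of 0.0999 (0.0636 to 0.151). EOMES had 7 UMIs in iNKT cells, or 0.131 CPM, and 96 UMIs in total thymocytes, or 3.36 CPM, a ratio of 0.0391 (0.0153 to 0.0837). Of 10436 genes with at least 100 UMIs over both libraries, 11.0% were at least 2-fold higher in iNKT cells and 17.5% at least 2-fold lower, with a median log2 ratio of -0.24. MAF and RORA were thus among the 11.0% and TBX21 and EOMES among the 17.5%, while GATA3 lay within 2-fold.

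**Figure D1:**
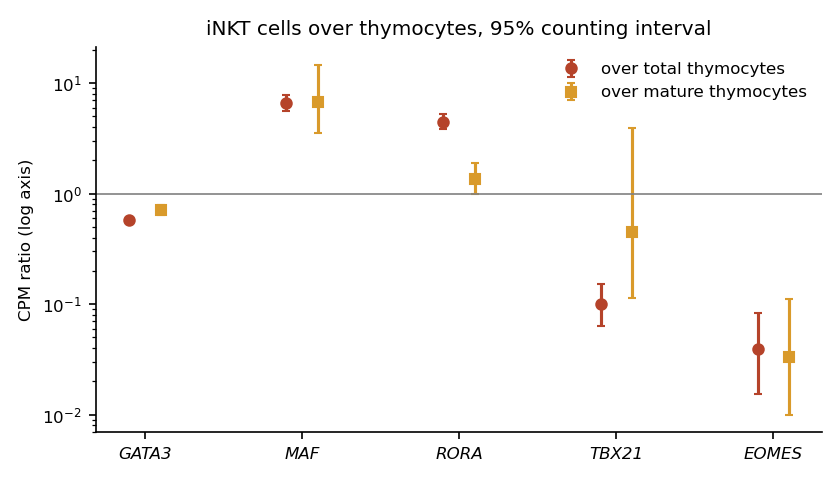
Ratio of CPM of each transcription factor in iNKT cells over all total thymocytes and over mature thymocytes, on a log axis, with 95% counting intervals as bars. MAF stood above 1 in both comparisons (6.58 and 6.72), GATA3, TBX21 and EOMES below 1, and the interval of TBX21 against mature thymocytes, like that of RORA at 1.36, takes in 1.

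Total thymocytes are mostly immature, so iNKT cells were also set beside conventional cells closer in stage. These were 467 total thymocytes with a CCR7 UMI, no RAG1 UMI and a UMI of either CD4 or CD8B alone. CCR7 is the chemokine receptor of thymocytes that have passed selection, and RAG1 a recombinase of cells still rearranging their receptor. Against these mature thymocytes MAF remained higher, at 34.1 CPM in iNKT cells and 5.07 CPM in mature thymocytes (9 UMIs), a ratio of 6.72 (3.53 to 14.7). RORA had 30.7 CPM in iNKT cells and 22.5 CPM in mature thymocytes (40 UMIs), a ratio of 1.36 (0.995 to 1.91), which did not resolve a difference at this stage. GATA3 had 168 CPM in iNKT cells and 237 CPM in mature thymocytes, a ratio of 0.709 (0.643 to 0.784). This last ratio was 0.916 (0.751 to 1.13) when each cell was thinned to 2000 UMIs and 0.937 (0.768 to 1.16) when the gate asked for 2 UMIs of CCR7 and of the co-receptor, so a lower GATA3 level than in mature thymocytes was not stable. EOMES had 7 UMIs in each, 0.131 CPM in iNKT cells and 3.94 CPM in mature thymocytes, a ratio of 0.0333 (0.00997 to 0.111). TBX21 had 0.507 CPM in iNKT cells and 1.13 CPM in mature thymocytes, where it rested on 2 UMIs, and its ratio of 0.450 (0.113 to 3.90) did not resolve a direction. In this comparison 9.33% of 9571 genes were at least 2-fold higher in iNKT cells and 8.54% at least 2-fold lower.

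Genes of the effector programs lay beside the factors as follows. Of 10 type 2 genes with enough UMIs in iNKT against total thymocytes, 6 were at least 2-fold higher and 1 was lower, with a median log2 ratio of 1.45. IL4, the signature cytokine, had 1350 UMIs in iNKT cells and 1 in total thymocytes, HPGDS, which makes prostaglandin D2, had 170 CPM in iNKT cells against 4.52 CPM in total thymocytes, and IRF4, a factor of activated T cells, had 10.6 CPM in iNKT cells against 2.91 CPM. Type 1 genes stood lower, with 3 of 12 higher, 5 lower and a median log2 ratio of -0.66. The chemokine genes CCL5 and XCL1 had ratios of 0.139 (0.125 to 0.154) and 0.158 (0.145 to 0.172), the chemokine receptor CXCR3 of 0.172 (0.136 to 0.216), and IFNG had no UMI in iNKT cells, which allows up to 0.0563 CPM, and 1 UMI in total thymocytes. The 3 higher type 1 genes were ID2, IL2RB and CCL4, at ratios of 9.95, 4.29 and 2.77. ID2 is an inhibitor of E proteins and IL2RB a receptor chain for IL-2 and IL-15.

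Among 7 type 17 genes with enough UMIs, 2 were at least 2-fold higher in iNKT cells and 3 lower, with a median log2 ratio of -0.04. IL17A and IL22 had no UMI in either library, IL23R none in iNKT cells and 5 in total thymocytes, and CCR6 none in iNKT cells and 3 in total thymocytes. In the iNKT library RORA transcript thus stood beside IL17A, IL22, IL23R and CCR6 at 0, which allows each up to 0.0563 CPM. SERPINB1, an inhibitor of neutrophil proteases, had 37.6 CPM in iNKT cells against 7.39 CPM in total thymocytes, and the proteoglycan SDC1, a surface marker of mouse type 17 iNKT cells, had 157 UMIs in iNKT cells against 2 UMIs. Of 21 other T cell transcription factors, 6 were at least 2-fold higher in iNKT cells and 8 lower, with a median log2 ratio of -0.36. KLF2, a factor of egress from the thymus, ZBTB7B, which encodes the CD4-lineage factor ThPOK, and EGR2, induced by receptor signalling, had ratios of 9.22, 13.2 and 3.19, and TCF7 and MYB of 0.230 and 0.0517. Against mature thymocytes the counts were 4 higher and 0 lower of 9 type 2 genes, 2 and 6 of 11 type 1 genes, 2 and 1 of 5 type 17 genes, and 5 and 6 of 21 other factors.

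Over the total library, each factor had its own distribution. Cells were gated by single UMIs, in order, into those with RAG1, those with SOX13 alone, those with CCR7, and the remaining cells by co-receptor, so a gate asks for a detected UMI and takes in deeper cells more readily. GATA3 was detected in every gate and was highest in the 300 cells with SOX13 and no RAG1, CD4 or CD8B, at 939 CPM, where 286 cells (95.3%) held a UMI. SOX13 is a factor of γδ T cells, and chose these cells. RHEX, another γδ-associated gene, had 1353 CPM in them against 121 CPM in the library as a whole, but TRDC, the constant gene of the δ receptor chain, had a single UMI there and 11 in the whole library. Relative to mature thymocytes the ratio of GATA3 was 3.97 (3.56 to 4.43), in a comparison where 6.73% of 4395 genes were at least 2-fold higher and 4.10% at least 2-fold lower. Cells with none of the gating genes had 391 CPM, 1.65 times (1.48 to 1.84) the level of mature thymocytes, where 5.70% of 6210 genes were at least 2-fold higher and 2.85% at least 2-fold lower. The lowest GATA3 levels were 161 CPM in RAG1 cells without both co-receptors and 190 CPM in RAG1 cells with both, and the other 7 gates lay between 218 and 391 CPM. CCR7 cells with CD4 alone had 267 CPM and those with CD8B alone 218 CPM, with intervals that met (229 to 309 and 191 to 248 CPM).

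MAF in total thymocytes was concentrated in the same SOX13 cells, which held 81 of its 148 UMIs (54.7%) in 56 cells (18.7% of the gate). Its level there was 46.6 CPM (37.0 to 57.9), against 5.07 CPM in mature thymocytes, a ratio of 9.20 (4.61 to 20.8). In every other gate MAF was at or below 8.44 CPM, and it had no UMI in the 728 cells with CD4 and CD8B and no RAG1, which allows up to 1.46 CPM. RORA was distributed otherwise. It was highest in the mature gates, at 25.4 CPM (16.9 to 36.8) in CCR7 cells with CD8B alone and 17.8 CPM (9.19 to 31.1) in those with CD4 alone, and at 5.76 CPM in the SOX13 cells, a ratio of 0.255 (0.114 to 0.520) to mature thymocytes. RAG1 cells with both co-receptors had 2.29 CPM of RORA, the lowest gate. With the gates ordered by their RORA level, neighbours had overlapping intervals.

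TBX21 was spread thinly over the immature cells. Gates with RAG1 or both co-receptors, which held 4199 cells (52.3% of the library), contained 95 of its 145 UMIs (65.5%) in 88 cells, and 126 of all 135 positive cells held a single UMI. Levels were 9.27 CPM in cells with CD4 and CD8B, 7.77 CPM in RAG1 cells with both and 5.49 CPM in other RAG1 cells, with overlapping intervals, against 1.13 CPM (0.136 to 4.07) in mature thymocytes. EOMES was instead found mostly outside these stages, in 55 of its 59 positive cells. Cells with none of the 5 gating genes held 28 of its 96 UMIs in 22 cells, at 6.07 CPM, and CCR7 cells with both or neither co-receptor held 18 UMIs at 7.35 CPM. The 3.88 CPM of RAG1 cells with both co-receptors came from 2 cells, 14 of the 17 UMIs from 1 cell. Cells with none of the gating genes also carried the erythroid list at 3804 CPM, the myeloid list at 302 CPM and the NK list at 94.5 CPM, and the part of these cells in the EOMES level was not tested.

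**Figure D2:**
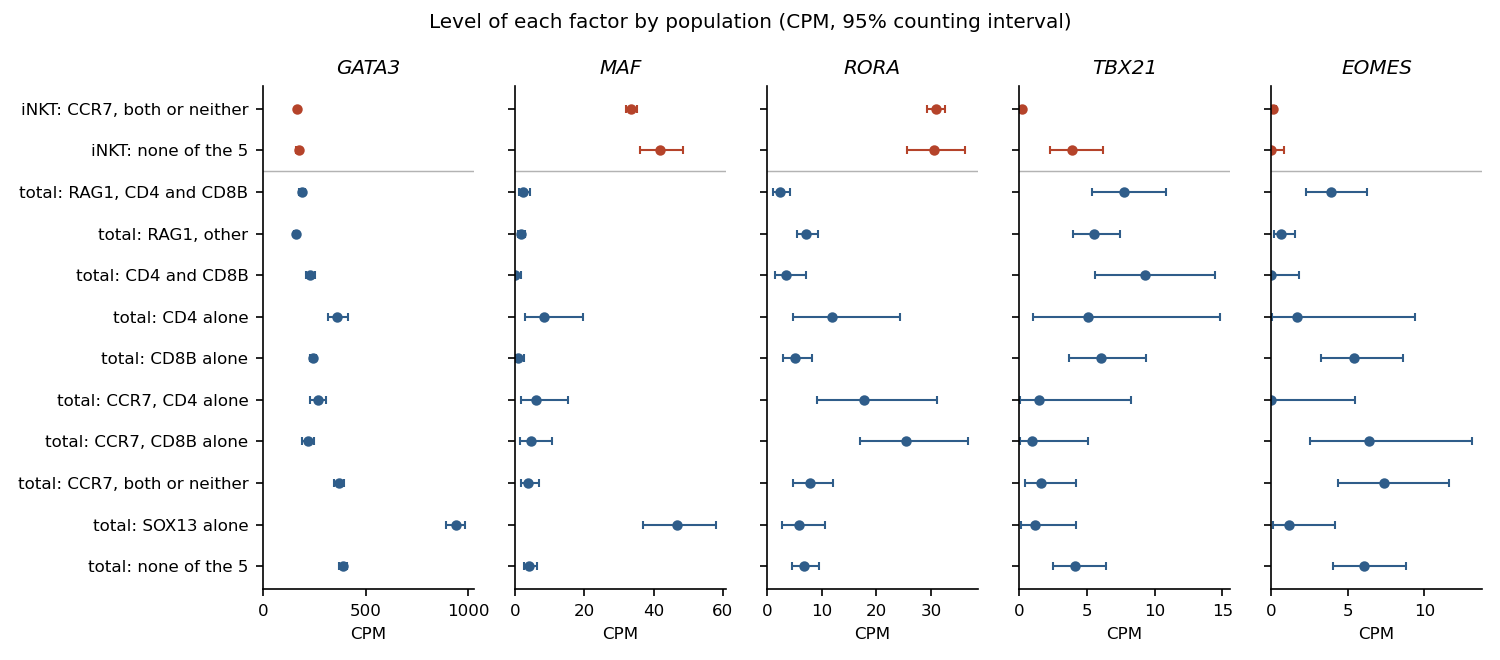
CPM of each transcription factor by gated population, iNKT populations first and then gates of total thymocytes, on linear axes that start at 0, with 95% Poisson intervals as bars. GATA3 and MAF were highest in the SOX13 gate of total thymocytes (939 and 46.6 CPM), RORA in the iNKT populations and the CCR7 gates with a single co-receptor, and TBX21 in gates of immature cells.

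Within the iNKT library most cells fell into 2 gates, 9994 cells (88.7%) with CCR7 and no single co-receptor and 1198 cells (10.6%) with none of the 5 gating genes. GATA3 and RORA hardly differed between them, at 167 and 30.8 CPM in the CCR7 cells and 174 and 30.5 CPM in the others. TBX21 did: the cells with none of the gating genes held 17 UMIs in 16 cells (1.34%), or 3.87 CPM, although their median depth was 3586 UMIs, and the CCR7 cells held 10 UMIs in 9 cells (0.0900%), or 0.206 CPM, at a median of 4294 UMIs. All 7 EOMES UMIs lay in CCR7 cells, and with none in the other gate up to 0.683 CPM is allowed there. MAF had 33.6 CPM in the CCR7 cells and 41.9 CPM in the others. EOMES in 7 of 11273 iNKT cells (0.0621%) cannot be told from free RNA, so EOMES expression by iNKT cells was not detectable at this depth. The check on free RNA was too small to clear MAF, TBX21 or RORA either. In its 23 cells of the total library a count of 0 allows a share of up to 13.0%, and 1 cell held RORA. Only 7 iNKT cells were gated by SOX13, and all 7 held GATA3, at 677 CPM (446 to 986).

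Cells with a UMI of each factor were counted next. GATA3 was detected in 5285 iNKT cells (46.9%), with 1 UMI in 3147 of them and 5 or more in 169. MAF was detected in 1401 cells (12.4%), RORA in 1357 (12.04%) and TBX21 in 25 (0.222%). In RAG1 thymocytes with both co-receptors, a stage with little of MAF and RORA, 0.532% and 0.759% of cells held them, at a median of 1814 UMIs. In total thymocytes the shares were 39.6% for GATA3, 1.33% for MAF, 2.03% for RORA, 1.68% for TBX21 and 0.735% for EOMES. iNKT cells were deeper, and at 2000 UMIs per cell (10965 iNKT cells and 4774 total thymocytes, with 2.73% and 40.5% too shallow) GATA3 was found in 26.8% of iNKT cells against 33.9% of total thymocytes, MAF in 6.26% against 1.32%, RORA in 5.68% against 1.74% and TBX21 in 0.100% against 1.07%. Thinning turned round the order for GATA3, whose CPM was also lower in iNKT cells.

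GATA3, MAF and RORA did not exclude each other in iNKT cells. GATA3 and MAF were found together in 699 cells, against 694.5 expected if each were detected independently among cells of like depth, a ratio of 1.01 (0.933 to 1.08). GATA3 and RORA were found together in 721 cells against 690.3 expected, a ratio of 1.04 (0.970 to 1.12). MAF and RORA shared 185 cells against 182.9 expected, a ratio of 1.01 (0.871 to 1.17). Each of these intervals spans 1, with lower bounds of 0.871 or above that cover counting error only. At 2000 UMIs per cell the ratio was 0.944 (0.809 to 1.095) for GATA3 and MAF and 1.03 (0.88 to 1.20) for GATA3 and RORA. For MAF and RORA it was 0.846 (0.582 to 1.19), so a larger shortfall is allowed at that depth. The check on free RNA took in cells of the total library only, and the part of free RNA and doublets in the shared cells was not tested. TBX21 and GATA3 shared 8 cells against 11.7 expected, a ratio of 0.681 (0.294 to 1.34), which does not separate exclusion from independence. The remaining pairs had fewer than 5 expected cells. They included 5 cells with TBX21 and RORA against 3.14 expected, 4 with TBX21 and MAF against 3.33, and 1 with TBX21 and EOMES against 0.0204. By level, RORA had 70.9 CPM in TBX21-positive cells (9 UMIs) against 30.6 CPM in TBX21-negative cells, a ratio of 2.32 (1.06 to 4.42), MAF a ratio of 1.62 (0.651 to 3.35) and GATA3 0.610 (0.325 to 1.04).

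Of all iNKT cells, 4713 (41.8%) held no UMI of any of the factors, 5160 (45.8%) held 1 factor, 1287 (11.4%) held 2, 111 (0.985%) held 3 and 2 cells held 4. The commonest combinations were GATA3 alone in 3968 cells, MAF alone in 620, GATA3 with RORA in 611, GATA3 with MAF in 591 and RORA alone in 556, and 105 cells held all of GATA3, MAF and RORA. The amount of GATA3 also bore little relation to the others. Among cells thinned to 2000 UMIs, MAF was found in 6.38% of 8027 cells with no GATA3 UMI, 5.99% of 2320 cells with 1 UMI, 4.62% of 498 cells with 2 and 10.0% of 120 cells with 3 or more, the last with an interval of 5.28% to 16.8%. RORA was found in 5.62%, 5.78%, 5.82% and 7.50% of the same cells, and IL4 in 4.46%, 4.53%, 5.02% and 7.50%.

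In total thymocytes 1 pair was found together more often than expected. GATA3 and MAF met in 90 cells against 55.8 expected, a ratio of 1.61 (1.30 to 1.98). Within the SOX13 gate alone it was 55 cells against 53.0 expected, a ratio of 1.04 (0.782 to 1.35), where 286 of 300 cells held GATA3 and little excess could show. The other gates with MAF-positive cells had at most 9.39 expected cells each, and intervals that took in 1. No excess within a single gate was thus resolved. The SOX13 gate held 56 (52.3%) of the MAF-positive cells, and the part of such gate differences in the excess over the whole library was not tested. GATA3 and RORA met in 58 cells against 74.6 expected, a ratio of 0.778 (0.591 to 1.01), and GATA3 and TBX21 in 73 against 73.0. Pairs without GATA3 had fewer than 5 expected cells each and intervals that took in 1. Among them, MAF and RORA met in 7 cells against 3.48 expected, a ratio of 2.01 (0.810 to 4.15). By level, RORA had 19.0 CPM in MAF-positive cells (10 UMIs) against 6.63 CPM in MAF-negative cells, a ratio of 2.87 (1.35 to 5.39).

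**Figure D3:**
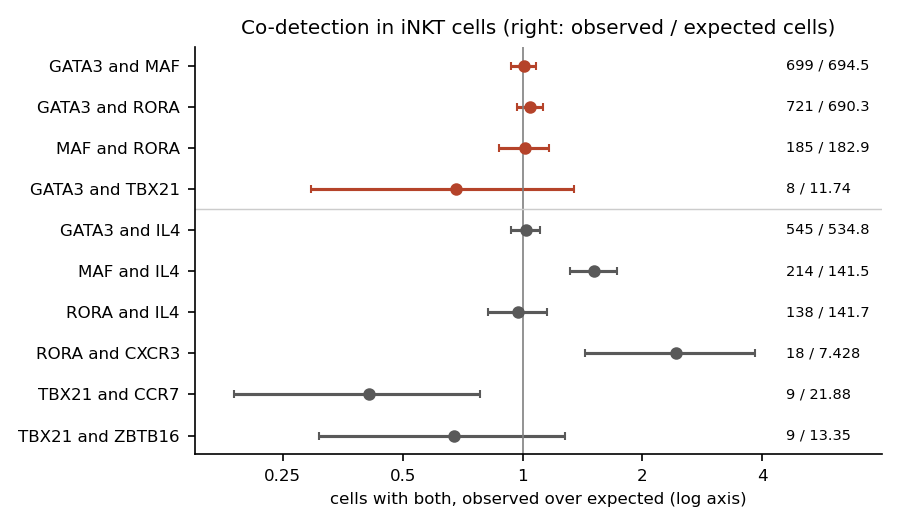
Cells with UMIs of both factors over the number expected within deciles of UMIs per cell, in iNKT cells on a log axis, with 95% Poisson intervals as bars and the observed and expected cells printed at the right. Pairs of the factors are above the line and pairs of a factor with IL4, CXCR3, CCR7 or ZBTB16 below it. The pairs of GATA3, MAF and RORA sit at 1.01 to 1.04, MAF with IL4 at 1.51 and RORA with CXCR3 at 2.42.

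What went with each factor inside the iNKT library was then read by comparing cells with a UMI of the factor and cells without. MAF-positive cells had more IL4 transcript and more CD69, FCER2 and CTLA4. Its 1401 positive cells had 44.2 CPM of IL4 against 22.3 CPM in the 9872 negative cells, a ratio of 1.98 (1.75 to 2.25), and MAF and IL4 were found together in 214 cells against 141.5 expected, a ratio of 1.51 (1.32 to 1.73). CD69, an early activation antigen that also retains cells in tissue, had 193 CPM in MAF-positive cells against 80.8 CPM in MAF-negative cells, a ratio of 2.39 (2.25 to 2.54). FCER2, which encodes the low-affinity IgE receptor CD23, had 49.7 CPM against 16.3 CPM, and CTLA4, an inhibitory receptor of the CD28 family, 39.2 CPM against 14.2 CPM, ratios of 3.05 (2.68 to 3.46) and 2.75 (2.39 to 3.16). NFIL3, a bZIP factor, IRF4, a partner of MAF at IL4 in mouse helper cells, PTGS2, which encodes cyclooxygenase-2, and CCL4, a chemokine of activated T cells, had ratios of 3.40, 2.69, 2.71 and 2.42. The receptor-response genes EGR2, EGR1 and NR4A1 had ratios of 1.78, 1.13 and 0.966 (0.803 to 1.16), so they did not move alike.

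Genes at the other end in MAF-positive cells rested on few cells or UMIs. CCL5 had a ratio of 0.150 (0.0743 to 0.271), with 11 UMIs in 3 positive cells. UHRF1 and E2F1, genes of DNA replication and its control, had ratios of 0.314 and 0.283, and at 2000 UMIs per cell their intervals took in 1. PIGR had a ratio of 0.193 by CPM but a larger share of positive cells (0.285% against 0.263%), so no direction is read, and the NK receptor gene KLRK1 had no UMI in MAF-positive cells against 125 UMIs in the others, which came from 34 of 9872 cells. In all, 33 genes (0.348% of 9488) were at least 2-fold higher in MAF-positive cells and 45 (0.474%) at least 2-fold lower. Of 9 type 2 genes, 2 were higher (NFIL3 and IRF4) and 0 lower, with a median log2 ratio of 0.30 against 0.02 over all genes, and IL4 itself lay just under 2-fold. ICOS, IL4R and CCR4 had ratios of 1.29, 1.23 and 1.15, while HPGDS had 0.723. Of 11 type 1 genes, 1 was higher (CCL4) and 2 were lower (CCL5 and KLRK1).

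RORA-positive cells differed little from the rest. Among 9488 genes, 5 (0.0527%) were at least 2-fold higher in the 1357 positive cells and 35 (0.369%) at least 2-fold lower. RHEX, a regulator of erythropoietin signalling, had 75.9 CPM in RORA-positive cells against 49.6 CPM in RORA-negative cells, a ratio of 1.53 (1.40 to 1.68), and METRNL, a secreted cytokine-like protein, a ratio of 1.74 (1.38 to 2.18). PTPN13 and SHCBP1 had ratios of 2.05 and 2.03 on 32 UMIs each in positive cells. The type 17 list held 0 of 5 genes past 2-fold in either direction, with SDC1 at 1.88 (1.26 to 2.73) and SERPINB1 at 1.22. A type 1 gene did stand higher: CXCR3 had a ratio of 2.11 (1.30 to 3.34), and RORA and CXCR3 were found together in 18 cells against 7.43 expected, a ratio of 2.42 (1.44 to 3.83). IL4 did not go with RORA, at a ratio of 0.877 (0.742 to 1.03) and 138 shared cells, 0.974 of those expected (0.818 to 1.15). CCL5 and XCL1 were lower by CPM, at ratios of 0.189 and 0.262, but came from 3 and 10 RORA-positive cells, so no direction is read for them. JCHAIN, MISP and PIGR were also lower by CPM, but few cells carried most of their UMIs, and JCHAIN was found in a larger share of RORA-positive cells (1.62%) than of RORA-negative cells (1.19%), so no direction is read for it.

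Split by both factors, IL4 was highest by CPM in cells with MAF and no RORA. It had 46.8 CPM (41.6 to 52.6) in the 1216 cells with MAF and no RORA, 31.1 CPM (22.1 to 42.5) in the 185 cells with both, 20.9 CPM (17.5 to 24.8) in the 1172 cells with RORA and no MAF, and 22.5 CPM (21.1 to 24.0) in the 8700 cells with neither. The first and the last of these groups did not overlap, and the interval of the cells with both factors overlapped those of the other groups. By share, IL4 was found in 15.2% of cells with MAF and no RORA and 15.7% of cells with both. Their median depths were 4329 and 5918 UMIs, and no order between them is read. The shares were 9.30% with RORA and no MAF and 8.15% with neither. CXCR3 had 3.51 CPM (2.20 to 5.32) in cells with RORA and no MAF and 3.19 CPM (0.869 to 8.17) in cells with both. Cells with MAF and no RORA had 0.648 CPM (0.177 to 1.66), from 4 UMIs in 3 cells. That interval lay below the one of cells with RORA and no MAF. It overlapped that of cells with neither, at 1.79 CPM (1.40 to 2.26). MAF and CXCR3 were found together in 7 cells against 8.15 expected, a ratio of 0.859 (0.345 to 1.77), so less CXCR3 with MAF was not resolved.

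GATA3-positive cells were hardly distinct. Of 9488 genes, 9 (0.0949%) were at least 2-fold higher in the 5285 positive cells and 9 at least 2-fold lower. The higher ones were genes of mitosis, such as ASPM at 3.28, CCNB2 at 2.62, CDC20 at 2.30 and UBE2C at 2.27, in cells with a median of 4599 UMIs against 3900 in GATA3-negative cells. At 2000 UMIs per cell their ratios were 0.874, 0.683, 0.960 and 1.11, so the direction of most of these genes was not kept. IL4 was not tied to GATA3 detection, at a ratio of 1.07 (0.962 to 1.20), and 0 of 9 type 2 genes passed 2-fold. On the lower side, MISP had a ratio of 0.0946, CCL5 0.205 (0.160 to 0.260) and KLRK1 0.114 (0.0602 to 0.199), all from few cells. CCL5 was found in 12 GATA3-positive and 30 GATA3-negative cells, and KLRK1 in 6 and 28. XCL1 had a ratio of 0.456 but was found in 0.984% of GATA3-positive and 0.952% of GATA3-negative cells, so no direction is read for it. The class II genes listed as SLA-DQB1 and HLA-DRA had ratios of 0.337 and 0.358. Of 11 type 1 genes, 0 were at least 2-fold higher by CPM and 3 lower in GATA3-positive cells, XCL1 among them.

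TBX21 marked 25 iNKT cells, 2 with 2 UMIs and the others with 1, which carried a set of type 1 and cytotoxic genes. CCL5 had 835 CPM in the TBX21-positive cells and 6.74 CPM in the TBX21-negative cells, a ratio of 124 (98.9 to 154), but its 106 UMIs came from 6 cells. XCL1 had 851 CPM in 11 cells against 11.7 CPM, and GZMH, a granzyme gene, 347 CPM in 11 cells against 8.84 CPM, ratios of 73.1 and 39.2. CXCR3, a known target of T-bet, was found in 7 of the 25 cells (28.0%) against 58 of 11248 (0.516%), and STAT4, which carries IL-12 signals, had a ratio of 9.26 (2.50 to 24.1) on 4 UMIs. The co-receptor chain gene CD8A was found in 9 of the 25 cells (36.0%) against 690 of 11248 (6.13%).

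Of 11 type 1 genes, 8 were at least 2-fold higher in TBX21-positive cells and 0 lower, with a median log2 ratio of 2.20, where 8.73% of all 9489 genes were at least 2-fold higher and 29.7% at least 2-fold lower. With 126912 UMIs behind the positive cells many of those folds rest on single UMIs, and 183 of the 828 higher genes and 152 of the 2816 lower genes had an interval clear of 1. CCR7 was found in 9 of the 25 cells (36.0%) against 10047 of the others (89.3%), and 21.9 cells with both would be expected, a ratio of 0.411 (0.188 to 0.781). The ratio of observed to expected cells for TBX21 with ZBTB16 was 0.674 (0.308 to 1.28). In the same cells, LEF1, a factor of naive T cells, had a ratio of 0.471 (0.308 to 0.690), and CCR4 and HPGDS of the type 2 list had 0.379 and 0.464. IL4 was not resolved, at 5 UMIs in 5 cells and a ratio of 1.56 (0.505 to 3.64). ZBTB16 was found in 9 of the 25 cells, at 166 CPM against 225 CPM, and CD3E in 24 of them, at 1347 CPM against 1228 CPM. The NK list stood at 173 CPM in TBX21-positive cells against 3.88 CPM, through KLRK1 and 1 further gene, with NCR1 and TYROBP at 0. The B list stood at 213 CPM against 116 CPM, from 1 gene, with CD79B and MS4A1 at 0. The γδ list stood at 150 CPM against 53.3 CPM, with TRDC and SOX13 at 0, and the class II genes listed as HLA-DRA and SLA-DQB1 had ratios of 26.2 and 19.2. The part of these lists and genes in the type 1 values was not tested.

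**Figure D4:**
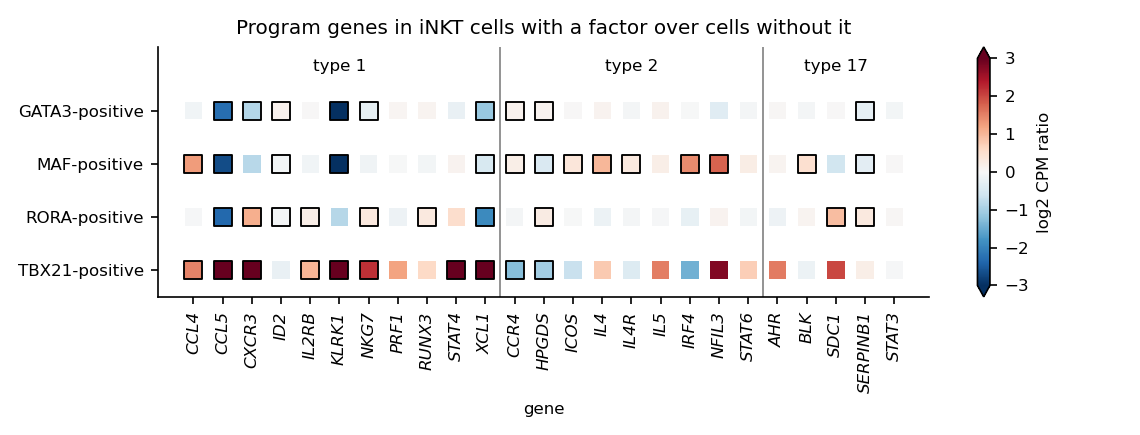
log2 ratio of CPM of program genes in iNKT cells with a UMI of each transcription factor over iNKT cells without, by colour limited to 3 in either direction, with black edges where the counting interval excludes 1. Type 1 genes such as CCL5, XCL1 and CXCR3 stand high in the TBX21 row, and IL4, IRF4 and NFIL3 higher in the MAF row. CCL5 stands low by CPM in the GATA3, MAF and RORA rows, from few positive cells. The edges do not allow for several UMIs coming from the same cell.

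Total thymocytes were split by the same factors. Positive cells were deeper than negative cells, with a median of 4265 against 2403 UMIs for EOMES and 5140 against 2394 for TBX21. For MAF the medians were 4136 against 2387 UMIs and for RORA 3334 against 2392. These splits were not repeated at a like depth, so the part of depth in their values was not tested. EOMES marked 59 cells, with GZMK, a granzyme gene of memory T cells, at 315 CPM against 6.97 CPM in the EOMES-negative cells, a ratio of 45.2 (34.9 to 58.2). CCL5 had 1489 CPM in EOMES-positive cells (19 of 59 cells) against 48.1 CPM, and TNFRSF9, an activation receptor of T cells, 202 CPM against 6.65 CPM. Of 12 type 1 genes, 10 were at least 2-fold higher in EOMES-positive cells and 0 lower, where 8.19% of 9121 genes were higher and 15.7% lower. CD3E was found in 56 of the 59 cells, and NCR1 in 4.

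TBX21-positive total thymocytes lay in both immature and other gates. The 88 cells in gates with RAG1 or both co-receptors carried RAG1 at 311 CPM, no CCL5 or KLRK1 UMI and a single XCL1 UMI. As in iNKT cells, CCL5 and XCL1 were among the genes named for TBX21-positive cells, and the 47 cells of the other gates carried 402 UMIs of CCL5 in 10 cells and 403 UMIs of XCL1 in 10 cells. Type 1 genes at least 2-fold higher over all 135 cells numbered 5 of 12, with 0 lower, where 2.02% of 9120 genes were higher and 8.82% lower.

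MAF-positive total thymocytes, 107 cells, were led by RHEX, IL9R and SOX13. RHEX had 2052 CPM in them against 84.8 CPM in MAF-negative cells, a ratio of 24.2 (22.5 to 26.0), and SOX13 376 CPM against 25.5 CPM. The cytokine receptor gene IL9R had a ratio of 20.1 (14.1 to 28.3), BLK, a Src-family kinase of B cells and type 17 γδ cells in mice, a ratio of 6.61 (5.81 to 7.49). Type 17 genes came to 2 of 5 higher and 1 lower, where 6.80% of all genes were higher and 10.7% lower. RORA-positive total thymocytes, 163 cells, had S100A4 at 170 CPM against 18.8 CPM in RORA-negative cells, TNFRSF4, which encodes OX40, at 184 CPM against 19.3 CPM, and IL2RA, the high-affinity IL-2 receptor chain, at 37.2 CPM against 3.83 CPM. FOXP3 was found in 11 of these cells. Of the 163 cells, 63 (38.65%) lay in gates with RAG1 or both co-receptors, which held 52.3% of the library. The double-positive list stood at 1475 CPM in RORA-positive cells against 1677 CPM in RORA-negative cells. The part of each stage in the values of RORA-positive cells was not tested. GNLY, the granulysin gene, had a ratio of 60.1, with 96 UMIs from 3 cells. The NK list stood at 92.9 CPM in RORA-positive cells against 19.2 CPM, and its part in the type 1 values was not tested. Of the type 1 genes, 7 of 12 were higher and 0 lower, where 4.28% of all genes were higher and 5.30% lower. RORA and CXCR3 were found together in 14 cells against 5.82 expected, a ratio of 2.41 (1.32 to 4.04). An excess with CXCR3 was not particular to RORA in this library. On fewer than 5 expected cells each, the ratio was 6.98 (3.82 to 11.7) for EOMES and 2.49 (1.20 to 4.58) for TBX21. It was 2.15 (0.927 to 4.23) for MAF, also on fewer than 5, and 0.844 (0.675 to 1.04) for GATA3.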

How the data were processed

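UMI counts per gene and cell barcode were deposited by the authors as raw whole-number count matrices, made with Cell Ranger 3.1 and Seurat 3.1 per the submitters' processing notes. The genome build and annotation are not given in the sources used here. Of 21301 genes, 14846 were named in the deposited gene lists, 687 through a gene name table and 5768 had no name. The deposited counts summed to 54457966 UMIs in 12097 iNKT barcodes and 29723207 UMIs in 9112 barcodes of total thymocytes, of which 93.2% and 88.1% of barcodes were kept (at least 500 genes, at most 10% UMIs of 13 mitochondrial genes). No doublets were removed and no caller was run.

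UMIs were summed per population and scaled to CPM. Ratios carry exact conditional binomial 95% intervals, levels exact Poisson intervals and shares Clopper-Pearson intervals. A gene was called higher or lower at a ratio of at least 2 or at most 0.5, with at least 100 UMIs over both groups. Co-detection was compared with the number expected within 10 strata of UMIs per cell. Cells were thinned to 2000 UMIs, leaving out shallower ones. A count of 0 allows 3 UMIs. Pooled pigs and single libraries permit no replicate error, and UMIs of 1 cell are not independent of each other. Named genes were those with the highest lower or lowest upper interval bound in each comparison of positive with negative cells (8 and 5), genes of the program lists, and, for each factor, the 3 genes most like it over gated populations. The factors and gene lists were chosen with earlier results of these data known. The scripts were tested on simulated data. GZMA, GZMB, HOPX, BATF, PLAC8, IL17RE and SOX4 were not analysed here, and some genes of the lists are not reported here by name. Tools were Python 3.11.15, numpy 2.4.6, scipy 1.17.1, pandas 2.3.3 and matplotlib 3.10.9, with R 4.3.3 and edgeR 4.0.16 for TMM factors only.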

Additional observations from a re-analysis of the deposited data

How the results depend on the processing

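Against total thymocytes each factor kept its direction, with an interval clear of 1, under every setting run (equal weight per cell has no interval). Against mature thymocytes MAF and EOMES did so, while RORA changed direction and the interval of GATA3 took in 1 under the settings named below; the cause was not tested. Of 126 alternative values for the main comparisons, 96 stayed within the counting interval or 1.5 times the count and 30 did not. Against total thymocytes, a limit of 5% mitochondrial UMIs gave ratios of 0.549 for GATA3, 0.0630 for TBX21, 4.61 for MAF and 3.49 for RORA. Without the 8% of cells with the most UMIs they were 0.521 for GATA3, 5.11 for MAF and 3.40 for RORA, and at 2000 UMIs per cell 0.548 for GATA3, 0.0136 for EOMES, 4.49 for MAF and 3.08 for RORA. Equal weight per cell gave 7.83 for MAF and 3.82 for RORA. TMM factors, which shift every log2 ratio by 0.31, gave 0.715 for GATA3, 8.16 for MAF and 5.54 for RORA. iNKT cells with a ZBTB16 UMI, an alternative chosen after seeing the data, gave 0.600 for GATA3; the other added alternative, iNKT cells without markers of other cells (11048 cells), moved none of these. Against mature thymocytes, GATA3 had 0.830 at 5% mitochondrial UMIs, 0.809 without the deepest cells, 0.916 thinned, 0.820 with equal weight per cell, 0.837 with TMM factors and 0.937 with a gate of 2 UMIs, and RORA had 0.987 with that gate and 1.60 (1.17 to 2.25) with TMM factors. GATA3 and RORA co-detection was 1.13 with no strata of depth, and MAF and RORA 0.846 thinned, with an interval of 0.582 to 1.19. Thinned counts of genes past 2-fold were 1 higher with GATA3, 126 lower with MAF, and 17 higher and 166 lower with RORA, on fewer UMIs per gene. Genes reversed by thinning were ASPM (0.874), CCNB2 (0.683), CDC20 (0.960), TOP2A (0.779) and TPX2 (0.826) in GATA3-positive cells, and UBE2C (0.922), SLC27A4 (0.772) and SHCBP1 (0) in RORA-positive cells. MAF and IL4 co-detection was 1.96 times that expected when thinned, and RORA and CXCR3 2.13 (0.856 to 4.39) at 5% mitochondrial UMIs. The thinned comparison of TBX21-positive cells was not run, since fewer than 20 positive cells were left. No paired analysis was possible because each kind of cell had 1 library, and for the same reason no library could be left out. Depth limits TBX21 and EOMES in iNKT cells most, at 27 and 7 UMIs.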

Other observations

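Across 12 gated populations of both libraries with at least 50 cells each, the genes whose log2(CPM + 10) most resembled that of each factor were SLC12A4, CTPS1 and PLEKHF2 for GATA3 (Pearson r 0.949, 0.947 and 0.943), EIF1B, NEB and BCKDHB for TBX21 (0.957, 0.926 and 0.923), and SLA-DQB1, TWNK and GATD1 for EOMES (0.830, 0.814 and 0.790). For MAF they were ITM2B, RGS2 and COX4I1 (0.972, 0.957 and 0.943), and for RORA DNAJB4, DENND2D and JAK3 (0.966, 0.952 and 0.948). Between the factors, r was -0.66 for TBX21 and RORA, -0.56 for TBX21 and MAF and 0.55 for MAF and RORA. These are descriptions over populations that share libraries and differ in depth.

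Splits of the iNKT library by other genes gave further levels. In the 1032 cells with an IL4 UMI, MAF had 52.9 CPM against 31.7 CPM in cells without. In the 699 cells with a CD8A UMI, TBX21 had 2.92 CPM against 0.341 CPM, and MAF 44.7 CPM against 33.3 CPM. Cells with an S100A4 UMI, a calcium-binding protein of memory-like T cells, had 39.9 CPM of MAF against 29.3 CPM and 34.6 CPM of RORA against 27.4 CPM. Cells with an ISG15 UMI, a gene induced by interferon, had 33.0 CPM of RORA against 27.9 CPM and 161 CPM of GATA3 against 175 CPM. Cells with a ZBTB16 UMI had 175 CPM of GATA3 against 156 CPM and 32.8 CPM of RORA against 27.1 CPM, while MAF had 33.8 CPM against 34.5 CPM.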
